A study of Homo sapiens with 6 samples.

Results

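DNA repair genes were followed by pathway in MV411 cells after 48 h with corilagin. The 41 genes of a fixed list of repair symbols were taken from the 20036 genes of the deposited table by matching Ensembl identifiers to symbols, and all 41 matched. They fall into 15 genes of homologous recombination and the Fanconi pathway, 6 of end joining, 3 of mismatch repair, 9 of base excision and single-strand break repair, 6 of nucleotide excision repair, and 2 replicative polymerases that several excision pathways share. MV411 is a cell line from a human myeloid leukaemia with monocytic features, the only line studied, and its genotype is labelled wild type. Poly(A) RNA was sequenced from 3 libraries exposed to corilagin, an ellagitannin made by plants, and from 3 libraries given DMSO, the solvent control. Both groups were taken at 48 h, and no dose of corilagin is stated in the sources used here. Nothing in the labels says that replicates were separate cultures, so the p-values cover only how far these libraries spread, and that spread may be technical. In bulk RNA, fewer cells that express a gene and less RNA per cell cannot be told apart.

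Homologous recombination copies an intact sister strand to mend a broken chromosome, and the Fanconi proteins direct the same machinery to crosslinked DNA. End joining ligates broken ends directly. Mismatch repair corrects replication errors, base excision repair removes single damaged bases, and nucleotide excision repair cuts out bulky lesions, each followed by resynthesis and ligation. Dividing leukaemia cells express most of these genes, and the recombination genes are known for higher expression in S phase.

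Expression was given as FPKM, fragments scaled to gene length and library depth, with 17776956 to 21640689 fragments per library. Myeloid markers fitted the line in part. CD33, LYZ, FLT3, CD4, CSF1R, SPI1 and PTPRC were at 5.15 FPKM or more in every library, ITGAM and MPO reached at most 2.88 and 1.93 FPKM, and CD14 and CD68 stayed at or under 0.340 FPKM. Of the 12 markers of other cell types, MS4A1, EPCAM, COL1A2, HBB and HBA1 were at 0 in every library, whereas PECAM1 reached 21.3 and KRT8 2.15 FPKM. The transcriptome of the first 2 DMSO libraries stood apart from the other 4 libraries in a way that followed the GC content of transcripts, the percentage of G and C bases. Across 9859 tested genes, the Spearman correlation of GC content with the difference of DMSO replicate 3 from DMSO replicates 1 and 2 was -0.838, and for corilagin minus DMSO replicate 3 it was -0.005. The fit was therefore repeated with the GC trend of each library removed, and against DMSO replicate 3 alone. In the latter fit the spread comes from the corilagin libraries only. Its p-values and calls, wherever given, thus hold no spread between DMSO libraries.

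The tested repair genes range from 36.2 to 65.0% in GC content, and 4 coding stretches show how they differ. Each is 90 bases of 1 coding exon whose GC content is closest to that of the gene's longest protein-coding transcript (GENCODE 29, GRCh38, printed 5′ to 3′ on the coding strand), with G and C in capitals. BRCA2 lies on the plus strand at chr13:32319082-32319171 (exon 3), XRCC6 on the plus strand at chr22:41636533-41636622 (exon 4), XRCC1 on the minus strand at chr19:43560929-43561018 (exon 3) and POLD1 on the plus strand at chr19:50398887-50398976 (exon 2).
BRCA2: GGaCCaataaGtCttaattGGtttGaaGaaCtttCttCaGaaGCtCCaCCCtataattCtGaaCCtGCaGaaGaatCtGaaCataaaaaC
XRCC6: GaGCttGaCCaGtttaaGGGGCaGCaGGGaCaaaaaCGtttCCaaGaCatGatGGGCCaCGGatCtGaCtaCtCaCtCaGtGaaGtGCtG
XRCC1: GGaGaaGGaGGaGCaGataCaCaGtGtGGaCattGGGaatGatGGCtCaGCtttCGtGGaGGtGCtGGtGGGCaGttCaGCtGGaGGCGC
POLD1: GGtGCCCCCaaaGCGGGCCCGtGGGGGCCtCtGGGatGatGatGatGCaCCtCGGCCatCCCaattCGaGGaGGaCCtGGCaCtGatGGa
The stretches hold 33, 46, 52 and 58 G or C bases in this order. The transcripts are at 36.3, 50.7, 58.3 and 65.0% GC.

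The question put to the data is which repair pathways held more or less mRNA after corilagin. Of the 41 genes, 39 had a mean of at least 1 FPKM and were tested. In the limma fit over all tested genes 6 were higher (BRCA2, BARD1, FANCI, MSH3, XRCC1 and POLB) and 7 were lower (RAD54L, XRCC6, LIG3, PARP1, APEX1, POLD1 and ERCC2) at an adjusted p under 0.05, and 26 did not pass. That is 15.4% higher and 17.9% lower, against 11.9% and 13.5% of all 9868 tested genes. The median log2 difference of the 39 genes was 0.19, against 0.03 over all tested genes. Its sign depended on the reference, since it was -0.02 after removal of the GC trend and -0.05 against DMSO replicate 3 alone, and it was 0.06 without DMSO replicate 1 and 0.10 without DMSO replicate 2. The groups did not overlap for 19 of the 39 genes, or 48.7%, against 48.3% of all tested genes, so that share was near the background.

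The calls were made with all 6 libraries, and their number changed with the fit. With limma-voom on the recovered fragments the same 6 and 7 genes were called, where 12.5% and 13.4% of all tested genes were (25.9% in either direction). Without the filter on low values 2 of 41 were higher and 6 lower, against 5.87% and 6.44% of the 15921 genes then tested (12.3% in either direction). Without corilagin replicate 1, 2 or 3 in turn, no repair gene was called by limma, though 6, 9 and 7 were higher and 7, 7 and 6 lower at an unadjusted p under 0.05. Of all tested genes, only 3.3, 3.1 and 3.6% were called in these fits. Without DMSO replicate 1 or DMSO replicate 2, no repair gene was called higher by limma (7 at an unadjusted p under 0.05 in each) and 3 (APEX1, LIG3 and XRCC6) or 2 (LIG3 and XRCC6) were called lower. Of all tested genes, 3.7% or 2.3% were called higher and 4.9% or 3.0% lower. Without DMSO replicate 3, 23 were higher and 11 lower, where 40.8% and 36.5% of all tested genes were called (77.3% in either direction). All 6 higher and all 7 lower genes of the fit with every library were among them. With the GC trend removed, 9 were higher and 10 lower (21.4% and 23.0% of all tested genes, 44.4% in either direction), and against DMSO replicate 3 alone 6 were higher and 10 lower (19.4% and 18.6%, 38.0% in either direction). BRCA2, BARD1, FANCI, MSH3 and XRCC1 were called higher over all 6 libraries and with the GC trend removed. Against DMSO replicate 3 alone their log2 differences were 0.34, 0.28, 0.20, 0.18 and 0.66. Without the filter on low values, only XRCC1 of these kept its call. BRCA2, BARD1, FANCI and MSH3 then had a limma adjusted p of 0.0742, 0.0578, 0.0612 and 0.0895. RAD54L, XRCC6, LIG3, PARP1, APEX1, POLD1 and ERCC2 were called lower over all 6 libraries and with the GC trend removed. Against DMSO replicate 3 alone they were at -0.22, -0.39, -0.45, -0.29, -0.32, -0.23 and -0.17. Without the filter all of these but ERCC2 were still called lower.

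**Figure D1:**
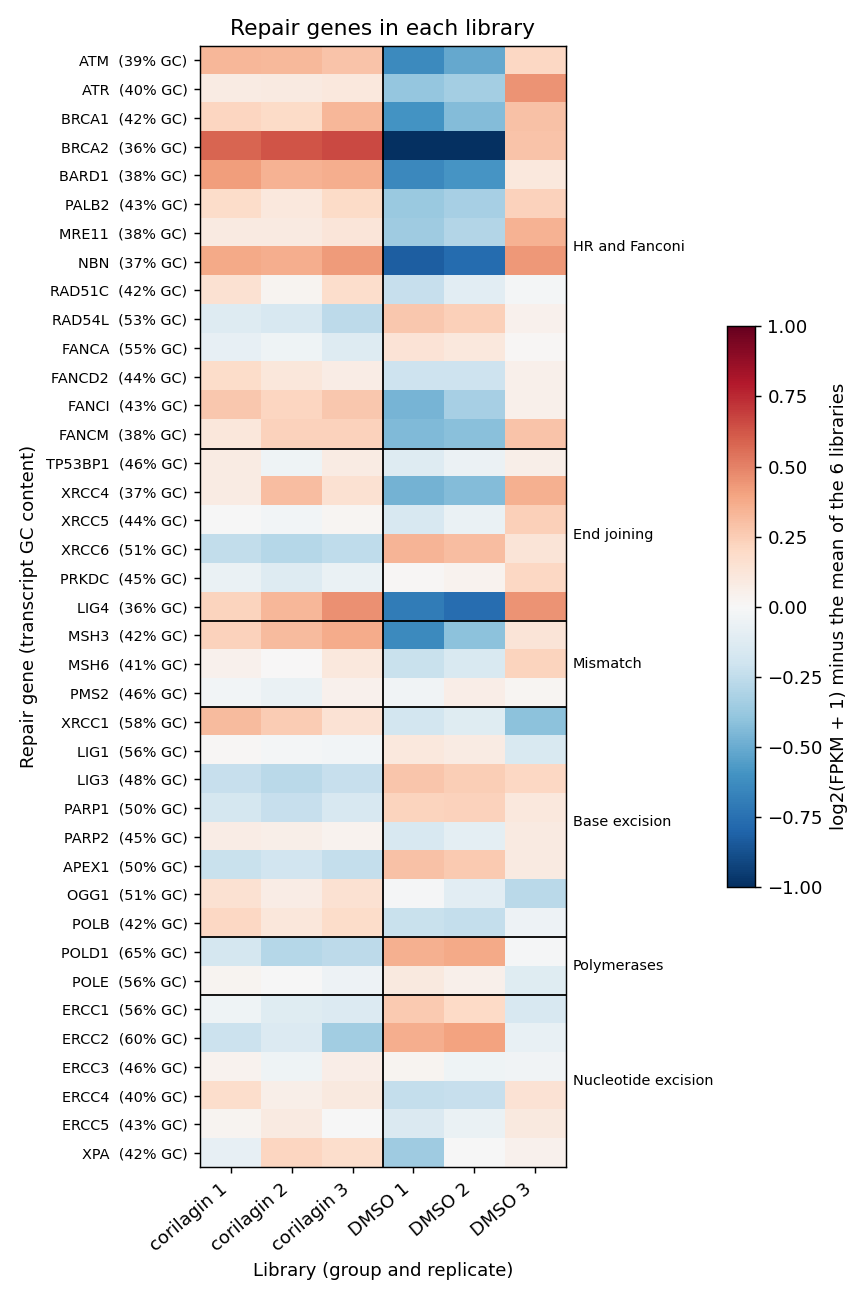
Heat map of the 39 tested repair genes (rows, grouped by pathway, with transcript GC content) in the 6 libraries (columns), coloured by log2(FPKM + 1) minus the gene's mean over the libraries. Genes of low GC content such as BRCA2 and NBN are low in DMSO replicates 1 and 2 and higher in DMSO replicate 3 and corilagin, while XRCC1 is above its mean in the 3 corilagin libraries only.

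**Figure D2:**
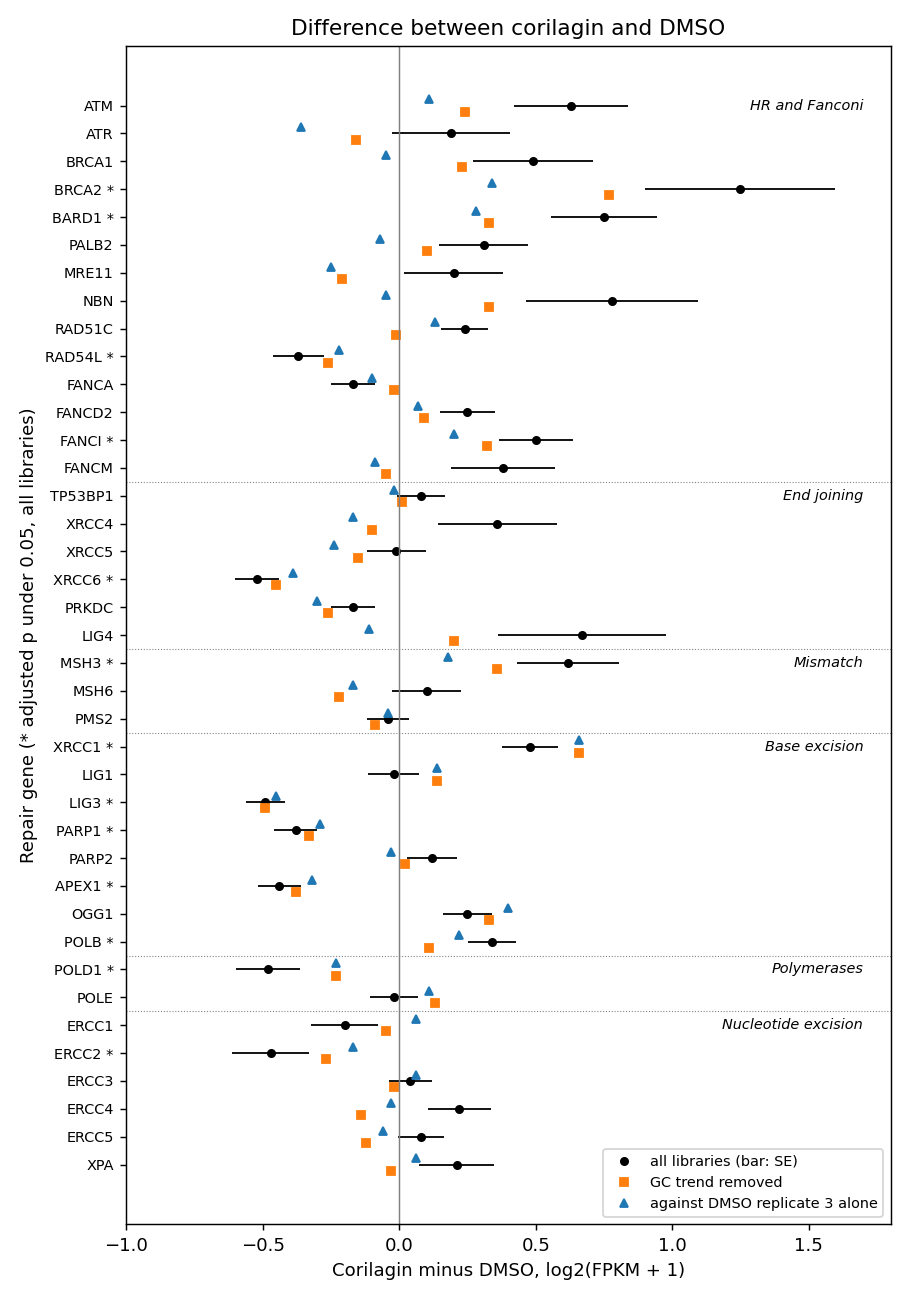
Difference between corilagin and DMSO on the log2(FPKM + 1) scale for each tested repair gene: black points with SE from all libraries, orange squares with the GC trend removed, blue triangles against DMSO replicate 3 alone. BRCA2 goes from 1.25 to 0.77 and 0.34, whereas LIG3 lies at -0.49, -0.49 and -0.45.

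Within homologous recombination and the Fanconi pathway, 3 of 14 tested genes were higher, 1 was lower and 10 did not pass, with a median log2 difference of 0.35. That is 21.4% higher and 7.1% lower, against 11.9% and 13.5% of all tested genes. Removing the GC trend gave a median of 0.10, and DMSO replicate 3 alone as the reference gave -0.05. With the GC trend removed, 4 were higher and 2 lower (28.6% and 14.3%), against 21.4% and 23.0% of all tested genes. Without DMSO replicate 3 the median was 0.56. BRCA2, which loads the recombinase onto single-stranded DNA (ENSG00000139618, chromosome 13, 32315474 to 32400266, plus strand, GRCh38), was at 13.2, 13.7 and 14.0 FPKM after corilagin and at 3.36, 3.66 and 10.6 FPKM in DMSO replicates 1, 2 and 3. All corilagin libraries lay above all DMSO libraries, and DMSO replicate 3 lay much nearer to corilagin than to the other DMSO libraries. The difference was 2.33-fold in mean FPKM, or 1.25 on the log2(FPKM + 1) scale (SE 0.348, limma adjusted p = 0.0402). It was 3.89-fold against DMSO replicates 1 and 2 and 1.29-fold against DMSO replicate 3 (log2 difference 0.34). The SD of BRCA2 was 0.403 FPKM with corilagin and 4.09 FPKM with DMSO. BRCA2 transcripts have a GC content of 36.3%, next to the lowest among the tested repair genes, which is the 36.2% of LIG4.

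BARD1, the obligate partner of BRCA1 in their ubiquitin ligase (chromosome 2, 214725646 to 214809711, minus strand), was at 14.2, 13.5 and 13.6 FPKM after corilagin and at 6.27, 6.56 and 11.2 FPKM in DMSO. Its groups did not overlap either, and the log2 difference of 0.75 (SE 0.193, limma adjusted p = 0.0325) became 0.33 once the GC trend was removed (adjusted p = 0.00216) and 0.28 against DMSO replicate 3. FANCI, which is clamped onto crosslinked DNA together with FANCD2 (chromosome 15, 89243949 to 89317261, plus strand), was at 13.9, 13.4 and 13.9 FPKM against 7.95, 8.82 and 11.8 FPKM. Its mean rose 1.44-fold (log2 difference 0.50, adjusted p = 0.0374), 1.16-fold against DMSO replicate 3. RAD54L, the motor protein that remodels recombination intermediates (chromosome 1, 46247688 to 46278473, plus strand), moved the opposite way. It was at 13.5, 13.2 and 12.2 FPKM after corilagin and at 18.1, 17.7 and 15.3 FPKM in DMSO, 0.762 of the DMSO mean (log2 difference -0.37, SE 0.0938, adjusted p = 0.0327). The RAD54L difference was -0.26 after removal of the GC trend and -0.22 against DMSO replicate 3 alone. RAD54L shares 25.1% of its exon bases with LRRC41 on the opposite strand, and the protocols used here do not say that strand was kept.

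The kinases and the break-sensing complex did not pass. ATM, which signals double-strand breaks, averaged 5.66 ± 0.111 FPKM with corilagin against 3.46 ± 1.5 FPKM with DMSO (SD, n = 3 per group). Its groups did not overlap, since DMSO replicate 3 was at 5.18 FPKM and the lowest corilagin library at 5.54 FPKM (limma adjusted p = 0.0629). Removal of the GC trend took its log2 difference from 0.63 to 0.24, and it was then called higher (adjusted p = 0.0277). ATR, which signals stalled replication, was at 2.76 ± 0.0274 and 2.43 ± 1.20 FPKM, and its DMSO libraries at 1.69, 1.78 and 3.82 FPKM lay on both sides of corilagin. Its sign therefore depended on the reference: the ATR log2 difference was 0.19 over all libraries, -0.16 with the GC trend removed and -0.36 against DMSO replicate 3 (adjusted p = 0.00613).

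MRE11, the nuclease of the break-sensing complex and the member of this pathway with the highest level, was at 25.1, 25.1 and 25.6 FPKM after corilagin and at 18.1, 19.0 and 30.2 FPKM in DMSO. Corilagin lay between the DMSO libraries, and the log2 difference was 0.20 over all libraries (limma adjusted p = 0.400), -0.21 with the GC trend removed (adjusted p = 0.00593) and -0.25 against DMSO replicate 3 (adjusted p = 0.00326). NBN, the scaffold of that complex, was at 6.47 ± 0.162 FPKM after corilagin and at 2.22, 2.34 and 6.71 FPKM in DMSO, so DMSO replicate 3 lay above every corilagin library. RAD50, its ATPase, was under the filter, at 0.160 to 0.233 FPKM after corilagin and 0.0530 to 0.245 FPKM in DMSO, from 11 to 48 fragments per library. In GENCODE 29, 79.7% of the exon bases of RAD50 also belong to AC116366.3, a gene on the same strand that the deposited table lists at 0 in every library. The sources used here do not say how fragments in shared exons were assigned, so the level of RAD50 cannot be compared with those of MRE11 and NBN.

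The remaining genes of this pathway did not pass either. BRCA1 was at 11.8 ± 0.700 FPKM after corilagin and at 6.14, 6.99 and 12.2 FPKM in DMSO (log2 difference 0.49, limma adjusted p = 0.123), and PALB2, which bridges BRCA1 and BRCA2, at 4.62 ± 0.190 and 3.60 ± 1.13 FPKM (adjusted p = 0.165). FANCD2, the partner of FANCI, was at 10.8 ± 0.477 and 8.98 ± 1.07 FPKM without overlap (adjusted p = 0.0995). RAD51C, a recombinase paralog, was at 1.99 ± 0.154 and 1.54 ± 0.185 FPKM, also without overlap (adjusted p = 0.0777), and its log2 difference of 0.24 was -0.01 once the GC trend was removed. FANCM, a DNA translocase, was at 1.75 ± 0.124 and 1.17 ± 0.661 FPKM (adjusted p = 0.153). FANCA, a subunit of the Fanconi ubiquitin ligase and at 55.4% GC the richest of the pathway, was at 7.49 ± 0.254 and 8.53 ± 0.394 FPKM, lower without overlap (adjusted p = 0.140).

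In end joining, XRCC6 was lower and the other 5 genes did not pass (16.7% lower, against 13.5% of all tested genes). The median log2 difference of 0.04 was -0.03 without DMSO replicate 1 and 0.12 without DMSO replicate 3. XRCC6 encodes Ku70, a subunit of the ring that binds broken ends (ENSG00000196419, chromosome 22, 41621119 to 41664048, plus strand), and had the highest level of all 41 repair genes. It was at 148, 144 and 147 FPKM after corilagin and at 222, 217 and 192 FPKM in DMSO, from 8739 to 14155 fragments. Every corilagin library lay below every DMSO library, at 0.696 of the DMSO mean (log2 difference -0.52, SE 0.0800, limma adjusted p = 0.00812), and at 0.761 of DMSO replicate 3. Its adjusted p was at most 0.0593 when any 1 library was left out. XRCC5, which encodes the Ku80 partner, was at 115, 113 and 117 FPKM after corilagin and at 103, 110 and 136 FPKM in DMSO. Corilagin thus lay within the DMSO range (log2 difference -0.01, limma adjusted p = 0.951), but size and sign depended on the reference. Against DMSO replicate 3 alone the XRCC5 difference was -0.24, at 0.848 of that library. Taking out the GC trend gave -0.15, which did not pass. Without DMSO replicate 3 XRCC5 was called higher (log2 difference 0.10, limma adjusted p = 0.0305).

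PRKDC, the catalytic subunit of the DNA-dependent protein kinase that Ku recruits, averaged 56.3 ± 1.45 FPKM with corilagin against 63.7 ± 4.89 FPKM with DMSO, lower without overlap but not called (limma adjusted p = 0.137). It was called lower after removal of the GC trend (log2 difference -0.26, adjusted p = 0.00267) and against DMSO replicate 3 alone (-0.30, adjusted p = 8.04e-04). LIG4 and XRCC4, the ligase of this pathway and its scaffold, were at 5.03 ± 0.493 and 5.87 ± 0.568 FPKM after corilagin. In DMSO they were at 1.93, 1.81 and 5.51 FPKM (LIG4) and 3.36, 3.48 and 6.73 FPKM (XRCC4), so DMSO replicate 3 lay above the corilagin mean of both. TP53BP1, which protects ends from resection, was at 4.73 ± 0.290 and 4.42 ± 0.368 FPKM (adjusted p = 0.482). Against DMSO replicate 3 alone, all 6 genes had a negative difference, with a median of -0.21, against 0.01 over all tested genes.

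In mismatch repair, MSH3 was higher and MSH6 and PMS2 did not pass (1 of 3 higher, where 11.9% of all tested genes were). MSH3, which recognises larger loops (chromosome 5, 80654648 to 80876460, plus strand), was at 4.78, 5.13 and 5.38 FPKM after corilagin and at 2.16, 2.70 and 4.37 FPKM in DMSO. The groups did not overlap, but the log2 difference of 0.62 (SE 0.187) passed the threshold narrowly (limma adjusted p = 0.0498), and it was 0.18 against DMSO replicate 3 alone, where it was not called (adjusted p = 0.103). The call also ended with a pseudocount of 0.1 or 0.5, without the filter, with equal sums and with median-of-ratios scaling. MSH6, which recognises single mismatches, was at 8.88, 8.60 and 9.32 FPKM after corilagin and at 7.23, 7.62 and 10.2 FPKM in DMSO, inside the DMSO range. Its log2 difference was 0.10 over all libraries (adjusted p = 0.555) and -0.22 with the GC trend removed (adjusted p = 0.00869). PMS2, the nuclease subunit, was at 3.16 ± 0.158 and 3.26 ± 0.142 FPKM (adjusted p = 0.727). PMS2 has near-identical pseudogene copies, so its fragments are hard to assign.

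In base excision and single-strand break repair, 5 of 8 tested genes were called over all libraries, 2 higher and 3 lower, against 25.4% of all tested genes in either direction. With the GC trend removed 3 were higher and 3 lower (44.4% of all tested genes in either direction), and likewise against DMSO replicate 3 alone (38.0%). Its median log2 difference was 0.05. XRCC1, the scaffold that gathers the enzymes of single-strand break repair (ENSG00000073050, chromosome 19, 43543040 to 43580473, minus strand), was at 29.2, 27.9 and 25.7 FPKM after corilagin and at 20.3, 21.3 and 17.2 FPKM in DMSO. All corilagin libraries lay above all DMSO libraries, and DMSO replicate 3 was the lowest of the 6. The rise was 1.41-fold (log2 difference 0.48, SE 0.103, limma adjusted p = 0.0205). Unlike for BRCA2, it was larger with the GC trend removed and against DMSO replicate 3 alone, 0.66 in both (adjusted p = 9.84e-05 and 5.08e-05). At 58.3% GC it was the only called rise among the 18 tested repair genes at or above 45% GC, 7 of which were called lower.

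LIG3, the ligase that XRCC1 binds (ENSG00000005156, chromosome 17, 34980494 to 35009743, plus strand), fell. It was at 2.29, 2.21 and 2.29 FPKM after corilagin and at 3.69, 3.58 and 3.45 FPKM in DMSO, 0.633 of the DMSO mean. The 3 DMSO libraries were close to each other, and the log2 difference of -0.49 (SE 0.0717, limma adjusted p = 0.00754) lay between -0.51 and -0.47 whichever library was left out. LIG3 shares 30.5% of its exon bases with genes on the opposite strand, mainly RFFL. APEX1, the endonuclease that cuts at abasic sites (chromosome 14, 20455191 to 20457772, plus strand), had the highest level of this pathway, at 121, 124 and 120 FPKM after corilagin and 174, 170 and 151 FPKM in DMSO. It fell to 0.735 of the DMSO mean without overlap (log2 difference -0.44, adjusted p = 0.0128), and the APEX1 difference was -0.38 and -0.32 in the other fits.

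PARP1, the main sensor of strand breaks, which makes poly(ADP-ribose) (chromosome 1, 226360691 to 226408079, minus strand), was at 23.6, 22.6 and 23.8 FPKM after corilagin and at 31.4, 31.6 and 28.8 FPKM in DMSO. It fell to 0.762 of the DMSO mean (log2 difference -0.38, limma adjusted p = 0.0177) and to 0.811 of DMSO replicate 3. PARP2, the second break-sensing polymerase of this family, averaged 12.2 ± 0.157 FPKM with corilagin against 11.2 ± 1.15 FPKM with DMSO (adjusted p = 0.344). POLB, the gap-filling polymerase, rose from 11.2 ± 0.923 to 14.4 ± 0.562 FPKM without overlap (adjusted p = 0.0327). Its log2 difference of 0.34 became 0.11 once the GC trend was removed, which ended the call (adjusted p = 0.164), and was 0.22 against DMSO replicate 3 alone (adjusted p = 0.0194).

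OGG1, the glycosylase for oxidised guanine, averaged 2.09 ± 0.0975 FPKM with corilagin against 1.60 ± 0.235 FPKM with DMSO, higher without overlap but not called (limma adjusted p = 0.0699). As with XRCC1, DMSO replicate 3 was its lowest library (1.35 FPKM), and OGG1 was called higher after removal of the GC trend (log2 difference 0.33, adjusted p = 0.00487) and against DMSO replicate 3 alone (0.40, adjusted p = 0.00652). It shares 29% of its exon bases with genes on the opposite strand. LIG1, the ligase of replication and long-patch repair, was at 20.2 ± 0.30 and 20.6 ± 2.06 FPKM (adjusted p = 0.865), with a log2 difference of 0.14 and a call after removal of the GC trend (adjusted p = 0.0291). MUTYH, the glycosylase for adenine opposite oxidised guanine, was under the filter, with 16 to 41 fragments and 0.146 to 0.334 FPKM over all libraries.

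Both replicative polymerases were well expressed. POLD1, the catalytic subunit of polymerase delta (chromosome 19, 50384204 to 50418016, plus strand), was at 37.6, 34.7 and 35.4 FPKM after corilagin and at 54.6, 55.5 and 42.3 FPKM in DMSO. It fell to 0.707 of the DMSO mean without overlap (log2 difference -0.48, SE 0.117, limma adjusted p = 0.0290). Its log2 difference was -0.23 both with the GC trend removed and against DMSO replicate 3 alone, called in both (adjusted p = 0.00596 and 0.00814). POLE, the catalytic subunit of polymerase epsilon, was at 16.8 ± 0.518 and 17.0 ± 1.42 FPKM (log2 difference -0.02, adjusted p = 0.884). With the GC trend removed POLE was called higher (log2 difference 0.13, limma adjusted p = 0.0463), and its difference was 0.11 against DMSO replicate 3 alone.

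In nucleotide excision repair, ERCC2 was lower and 5 genes did not pass (median log2 difference 0.06, or -0.08 with the GC trend removed and 0.01 against DMSO replicate 3). That is 16.7% lower, against 13.5% of all tested genes. ERCC2, also called XPD, a helicase of TFIIH that opens the damaged helix (chromosome 19, 45349837 to 45370918, minus strand), was at 8.95, 9.52 and 8.09 FPKM after corilagin and at 13.9, 14.3 and 10 FPKM in DMSO. The groups did not overlap, and the log2 difference was -0.47 (SE 0.141, limma adjusted p = 0.0494). It was -0.17 against DMSO replicate 3 alone, where it was not called (adjusted p = 0.135). The call also ended with a pseudocount of 0.1, without the filter, with a minimum mean of 5 FPKM and with equal sums. ERCC1, a subunit of the nuclease that cuts on the 5′ side and the gene of this pathway with the highest level, was at 18.3, 17.3 and 17.1 FPKM after corilagin and 22.9, 21.8 and 16.8 FPKM in DMSO, where the third library lay below corilagin (adjusted p = 0.227).

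The remaining genes of nucleotide excision repair did not pass. ERCC3, the second TFIIH helicase, was at 9.98 ± 0.443 and 9.68 ± 0.30 FPKM (limma adjusted p = 0.710), and XPA, which verifies the lesion, at 7.67 ± 0.944 and 6.51 ± 1.09 FPKM (adjusted p = 0.256). ERCC4, the nuclease partner of ERCC1, was at 1.23 ± 0.0890 and 0.930 ± 0.301 FPKM (adjusted p = 0.168). ERCC5, the nuclease that cuts on the 3′ side, was at 1.10 ± 0.0646 and 0.993 ± 0.176 FPKM (adjusted p = 0.490). In GENCODE 29, 63.2% of the exon bases of ERCC5 also belong to BIVM-ERCC5 on the same strand, which the table lists at 0 in every library, so the level of ERCC5 has the same limit as that of RAD50.

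The direction of the differences followed GC content across the repair genes, as it did across all tested genes. Over the 39 tested genes, which share the 6 libraries, the Spearman correlation of GC content with the log2 difference was -0.752, and it was -0.850 against DMSO replicates 1 and 2 and -0.068 against DMSO replicate 3. Over 9859 tested genes of any kind, the same correlations were -0.630, -0.720 and -0.005. Of the 21 repair genes under 45% GC, 20 had a positive difference, as did 3229 of all 3759 tested genes in that range. Of these 21, 5 were called higher and none lower by limma (0 also at an unadjusted p under 0.05 and in limma-voom), where 18.4% of all tested genes in that range were called higher and 2.5% lower. Their median log2 difference was 0.34, close to the 0.32 of all tested genes in that range, and -0.05 against DMSO replicate 3 alone. Of the 18 repair genes at or above 45% GC, 5 had a positive difference, 1 was called higher and 7 lower (7.8% and 20.3% of all tested genes in that range). Among all 6100 tested genes in that range, 2065 had a positive difference. The median GC content of the tested genes was 41% in homologous recombination and the Fanconi pathway, 44.7% in end joining, 42.1% in mismatch repair, 49.9% in base excision repair and 44.6% in nucleotide excision repair. The part of GC content in the pathway medians was not tested beyond the fits with the trend removed and against DMSO replicate 3 alone.

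**Figure D3:**
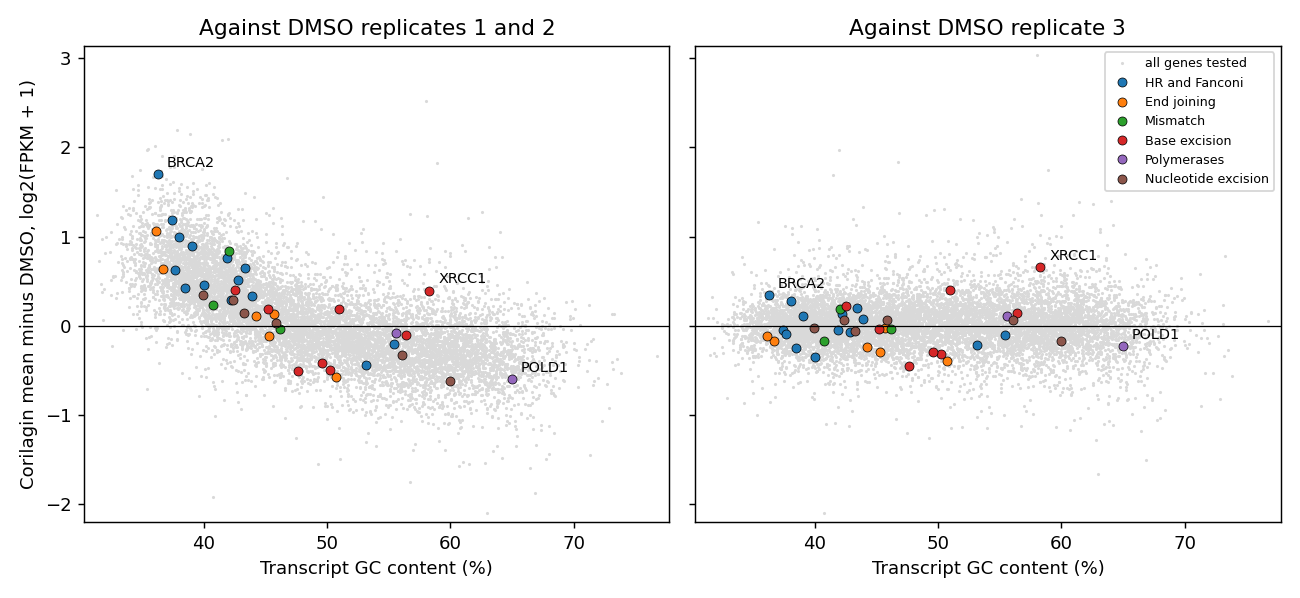
Transcript GC content (x axis, %) against the corilagin mean minus DMSO on the log2(FPKM + 1) scale, with DMSO replicates 1 and 2 (left) or DMSO replicate 3 (right) as the reference, for all genes tested (grey) and the repair genes (coloured by pathway). The slope on the left (Spearman -0.850 over the repair genes, -0.720 over all genes tested) is absent on the right (-0.068 and -0.005), and XRCC1 lies above 0 in both panels.

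Levels of partners in known complexes and functional pairs were also set against each other, as the FPKM of one divided by that of the other within each library. The 12 pairs were chosen after the values of the genes had been seen, so their ratios are given as a description, with no test. The ratio of XRCC1 to LIG3 had the largest fold between the group means, at 12.8, 12.6 and 11.3 after corilagin and at 5.50, 5.94 and 4.97 in DMSO, and all 3 DMSO libraries lay together. The Ku ratio, XRCC6 to XRCC5, was at 1.29, 1.27 and 1.26 after corilagin and at 2.15, 1.97 and 1.42 in DMSO. Here the third DMSO library lay nearer to corilagin than to the other DMSO libraries.

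The ratio of PARP1 to PARP2 was at 1.92, 1.85 and 1.99 after corilagin against 3.06, 2.92 and 2.31 in DMSO, and that of POLD1 to POLE at 2.18, 2.06 and 2.18 against 3.01, 3.17 and 2.74. MSH3 and MSH6 share a partner subunit, and their ratio was at 0.538, 0.597 and 0.577 after corilagin and 0.298, 0.355 and 0.428 in DMSO. BRCA1 to BARD1 was at 0.806, 0.840 and 0.928 after corilagin and 0.980, 1.07 and 1.09 in DMSO. The ratio of ERCC1 to ERCC4 overlapped, since DMSO replicate 3 was at 13.1, against 30.6 and 28.5 in the other DMSO libraries and 13.8 to 15.0 after corilagin. The partners of this last pair differ most in GC content, 56.1 and 39.9%.

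**Figure D4:**
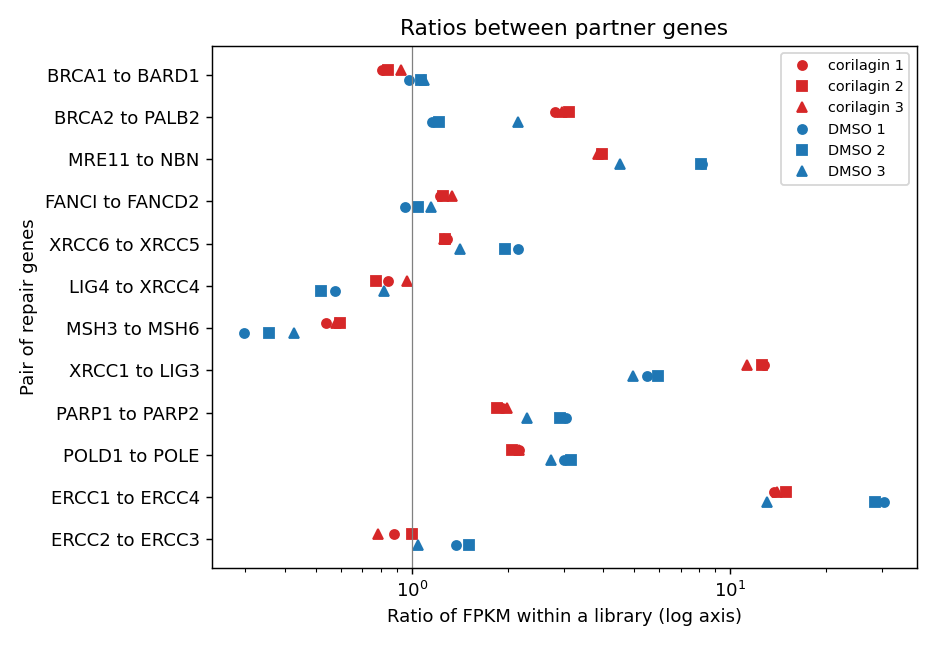
Ratio of FPKM between 2 repair genes within each library (x axis, log scale) for 12 pairs (rows), with corilagin in red and DMSO in blue and a symbol for each replicate. For XRCC1 to LIG3 the corilagin libraries lie at 11.3 to 12.8 and the DMSO libraries at 4.97 to 5.94, while for ERCC1 to ERCC4 DMSO replicate 3 lies beside corilagin.

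XRCC1 and LIG3 bind each other as proteins and their mRNAs moved in opposite directions, so their promoters are shown. Each is the 250 bases before the RefSeq transcription start (GRCh38.p14), 5′ to 3′ on the gene's strand, with matches to the motif of the factor NRF1 (GCGC and TGCGC with 1 base of any kind between them) in capitals. That of XRCC1 is chr19:43575528-43575777 on the minus strand, and that of LIG3 is chr17:34980262-34980511 on the plus strand.
XRCC1: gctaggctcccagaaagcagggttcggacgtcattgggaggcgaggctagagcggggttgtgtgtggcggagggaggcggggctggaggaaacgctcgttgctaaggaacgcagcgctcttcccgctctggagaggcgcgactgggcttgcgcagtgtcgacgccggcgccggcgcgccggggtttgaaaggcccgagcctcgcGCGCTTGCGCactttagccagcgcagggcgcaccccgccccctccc
LIG3: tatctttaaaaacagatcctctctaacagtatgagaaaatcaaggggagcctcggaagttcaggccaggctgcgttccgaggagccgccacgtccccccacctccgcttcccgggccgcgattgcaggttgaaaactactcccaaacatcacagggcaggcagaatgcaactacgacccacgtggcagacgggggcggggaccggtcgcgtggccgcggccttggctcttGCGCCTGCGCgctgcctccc
Each holds 1 match, which begins 46 bases before the start in XRCC1 and 20 bases before it in LIG3. Searched on both strands, the motif was in 9 of the 36 repair genes that the promoter table holds (25.0%), against 6.2% of the 27305 genes in the table and 5.1% of its 35116 promoters. Of these 9, XRCC1 was called higher, LIG3 and ERCC2 were called lower, and ATM, FANCA, LIG4, PALB2, PARP2 and XPA did not pass. The E2F motif forms TTTGGCGC and TTTCCCGC were in 2 (MSH3 and POLE) and 1 (LIG1) of the 36 genes, against 0.7 and 1.7% of all genes. The CCAAT box, the letters CCAAT, was in 19 of the 36 genes (52.8%), against 37.0% of all genes. Of these 19, 1 was called higher (XRCC1) and 4 lower (APEX1, ERCC2, RAD54L and XRCC6). The promoter table holds genes whether or not they were tested here, and no comparison with tested genes alone was made. A match is a description of these letters and not a shown binding site.

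Other genes of the same pathways, from textbook lists of 99 symbols, gave 5 higher and 10 lower of 92 tested (5.4 and 10.9%, against 11.9 and 13.5% of all tested genes). With the GC trend removed, 18 were higher and 24 lower (19.6 and 26.1%, near the 21.4 and 23.0% of all tested genes in that fit). Against DMSO replicate 3 alone, 9 were higher and 25 lower (9.8 and 27.2%, against 19.4 and 18.6%). In base excision repair, NTHL1, a glycosylase for oxidised pyrimidines, fell from 7.77 ± 0.858 to 3.53 ± 0.267 FPKM (limma adjusted p = 0.00302), UNG, the uracil glycosylase, fell from 25.6 ± 3.56 to 16.6 ± 0.153 FPKM (adjusted p = 0.0145), and NEIL3, another glycosylase, rose from 11.2 ± 2.58 to 16.0 ± 0.571 FPKM (adjusted p = 0.0459). In the fits without the GC trend and against DMSO replicate 3 alone, the log2 difference of NTHL1 went from -0.95 to -0.72 and -0.78, that of UNG from -0.59 to -0.52 and -0.35, and that of NEIL3 from 0.50 to 0.21 and 0.17. Of its 14 other tested genes 2 were higher and 4 lower.

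In homologous recombination, 2 of 33 other tested genes were higher with a mean of at least 5 FPKM, RAD51AP1, a recombinase cofactor (25.6 ± 10.6 to 44.2 ± 1.77 FPKM, limma adjusted p = 0.0446), and EME1, a subunit of a junction nuclease (5.31 ± 0.393 to 6.74 ± 0.285 FPKM, adjusted p = 0.0444). DMSO replicate 3 held 37.8 FPKM of RAD51AP1, the other DMSO libraries 18.5 and 20.6 FPKM. Its log2 difference of 0.83 was 0.35 after removal of the GC trend and 0.22 against DMSO replicate 3 alone, while that of EME1 was 0.30, 0.36 and 0.31. In the same list, 1 gene was lower. That is 6.1% higher and 3.0% lower, against 11.9% and 13.5% of all tested genes. With the GC trend removed, 12 of the 33 were higher and 4 lower (36.4% and 12.1%), against 21.4% and 23.0% of all tested genes. Of 14 other tested genes of resynthesis, none was higher in limma or limma-voom (1 at an unadjusted p under 0.05 in each) and 3 were lower in limma. POLD2, a small subunit of polymerase delta, fell from 21.9 ± 3.29 to 15.1 ± 0.288 FPKM (adjusted p = 0.0256), as POLD1 did, and RFC2, a clamp loader subunit, fell from 68.1 ± 5.56 to 54.2 ± 1.57 FPKM (adjusted p = 0.0350). In the same order of fits, POLD2 was at -0.50, -0.31 and -0.26 and RFC2 at -0.32, -0.20 and -0.19 on the log2 scale.

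Among 16 other tested genes of nucleotide excision repair, 1 was higher and 2 were lower. DDB1, a subunit of the damage-recognition ligase, fell from 26.9 ± 4.19 to 17.9 ± 0.151 FPKM (limma adjusted p = 0.0211). Its log2 difference of -0.55 was -0.44 after removal of the GC trend and -0.29 against DMSO replicate 3 alone. With the GC trend removed, 9 of the 16 were lower and 1 was higher, where 23.0% and 21.4% of all tested genes were. None of 11 other end-joining genes and none of 4 other mismatch repair genes was called by limma or limma-voom. At an unadjusted p under 0.05 in limma, 4 of the end-joining genes were lower and 2 of the mismatch repair genes higher.

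Since recombination and replication genes are used in S phase, 28 replication genes were counted beside them. Of these, 4 were higher and 5 lower (14.3 and 17.9%, against 11.9 and 13.5% of all tested genes), with a median log2 difference of -0.15. With the GC trend removed 6 were higher and 11 lower (21.4 and 39.3%, against 21.4 and 23.0%), and against DMSO replicate 3 alone 7 and 9 (25.0 and 32.1%, against 19.4 and 18.6%), with medians of -0.12 and -0.08. CCNE2, a cyclin of S phase entry, was higher at 13.7 ± 0.676 against 7.21 ± 3.54 FPKM (limma adjusted p = 0.0420), and CDC6, a licensing factor, at 43.2 ± 1.0 against 33.5 ± 2.35 FPKM (adjusted p = 0.0231). MCM7, a helicase subunit, fell from 164 ± 24.1 to 120 ± 4.66 FPKM (adjusted p = 0.0351) and GINS1, a subunit of the replicative helicase complex, from 15.5 ± 0.461 to 11.5 ± 0.314 FPKM (adjusted p = 0.0137). The log2 difference of CCNE2 went from 0.93 to 0.47 and 0.26 in those fits, that of CDC6 from 0.36 to 0.28 and 0.27, that of MCM7 from -0.44 to -0.27 and -0.19, and that of GINS1 from -0.40 to -0.69 and -0.36. The part of cell cycle phase in the differences of the repair genes was not tested.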

How the data were processed

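The authors deposited 1 table of FPKM for 3 corilagin and 3 DMSO libraries. The submitters' processing notes name fastp 0.22.0, HISAT2 2.1.0, HTSeq 0.9.1, DESeq 1.38.3 and GRCh38, without settings. The FPKM values were whole multiples of 1 fragment (within 0.01), which gave the fragments per gene and library. Differences were tested on log2(FPKM + 1) with limma 3.58.1 in R 4.3.3 (2-sided, moderated with a mean-variance trend), using all 6 libraries and the 9868 genes averaging at least 1 FPKM, with Benjamini-Hochberg adjustment over these genes and a threshold of 0.05. This scale understates changes of low genes, so folds are ratios of mean FPKM. The GC trend was removed per library with a natural spline of 5 degrees of freedom on the GC content of the longest GENCODE 29 transcript, which also removes any treatment effect that follows GC content. Overlaps use GENCODE 29 exons of genes in the table. The fit was tested on simulated data. The members, pathway lists and alternatives were chosen with earlier results of these data known. Values in every library are given for called genes (up to 4 per pathway, by size) and for the highest-expressed gene of each pathway. Other pathway genes named are up to 2 rises and 2 falls per list that average at least 5 FPKM. Some genes that these rules cover are not reported here. Alternatives were pseudocounts of 0.1 and 0.5, other filters and scalings, limma-voom on recovered fragments, a replicate block and left-out libraries.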

Additional observations from a re-analysis of the deposited data

How the results depend on the processing

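Limma calls of repair genes ranged from 0 to 23 higher and from 0 to 11 lower when 1 library was left out, and those of all genes from 131 to 4030 higher and from 176 to 3597 lower. Without a filter, 2 repair genes were higher. The genes called higher or lower over all tested genes numbered 2113 and 2267 with the GC trend removed, and 2105 and 2207 when a replicate block was added to that fit. Against DMSO replicate 3 alone 1916 were higher, and with a mean of at least 5 FPKM 713 were higher. Same-numbered libraries correlated in their deviations at 0.280, 0.079 and 0.339. Corilagin replicate 1 correlated about as much with DMSO replicate 2 (0.279), while corilagin replicate 3 was at -0.312 and -0.323 with DMSO replicates 1 and 2. Whether the numbers pair the samples cannot be told from these values. With the replicate block 7 repair genes were higher and 7 lower, and 1547 and 1330 of all genes.

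Rescaling to equal sums shifted the median of all genes by 0.101, and 60.5% of its calls were higher against 46.8% as deposited. The median log2 differences were, in recombination and Fanconi genes, 0.10 with the GC trend removed (with or without the block) and -0.05 against DMSO replicate 3. In end joining they were -0.13 and -0.21, in mismatch repair -0.09 and -0.04, in the polymerases -0.05 and -0.06, and in nucleotide excision repair -0.08 and 0.01. Without single libraries, the recombination median ranged from 0.24 to 0.56 and the end joining median from -0.03 to 0.12, the mismatch repair median ranged from 0.01 to 0.24 and the nucleotide excision repair median from 0.04 to 0.09. The nucleotide excision repair median was also -0.08 with a mean of at least 5 FPKM, 0.14 with equal sums, -0.04 with quantile normalization, 0.09 with a pseudocount of 0.1 and 0.10 in limma-voom. The base excision median was 0.16 with equal sums and 0.02 with quantile normalization.

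Signs turned for genes that were not called over all 6 libraries, some of which were called in the fits named here. With the GC trend removed and no block, MRE11 and MSH6 were called lower and LIG1 and POLE higher. With the GC trend removed, with or without the block, the log2 differences were -0.16 for ATR, -0.21 for MRE11, -0.01 for RAD51C, -0.05 for FANCM, -0.10 for XRCC4, -0.22 for MSH6, 0.14 for LIG1, 0.13 for POLE, -0.02 for ERCC3, -0.14 for ERCC4, -0.12 for ERCC5 and -0.03 for XPA. Against DMSO replicate 3 alone they were -0.36 for ATR, -0.05 for BRCA1, -0.07 for PALB2, -0.25 for MRE11, -0.05 for NBN, -0.09 for FANCM, -0.02 for TP53BP1, -0.17 for XRCC4, -0.11 for LIG4, -0.17 for MSH6, 0.14 for LIG1, -0.03 for PARP2, 0.11 for POLE, 0.06 for ERCC1, -0.03 for ERCC4 and -0.06 for ERCC5. With equal sums they were 0.11 for XRCC5, 0.06 for PMS2, 0.09 for LIG1 and 0.10 for POLE, and with quantile normalization -0.01 for TP53BP1, 0.08 for XRCC5, -0.02 for ERCC3 and -0.06 for ERCC5. Without 1 library, XRCC5 ranged from -0.09 to 0.10, LIG1 from -0.10 to 0.02 and POLE from -0.08 to 0.03. None of the 13 repair genes called over all 6 libraries turned its sign under these alternatives. The cause of these changes was not tested.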
